A study of Saccharomyces cerevisiae with 4 samples.

Results

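The 7 genes described here encode Hsp70 chaperones, exchange factors and J-domain proteins of the yeast endoplasmic reticulum (ER). They are KAR2 (YJL034W), LHS1 (YKL073W), SIL1 (YOL031C), SCJ1 (YMR214W), JEM1 (YJL073W), ERJ5 (YFR041C) and HLJ1 (YMR161W). The J domain of the HLJ1 product faces the cytosol. They were chosen by systematic identifier, with earlier results of these data known. All 7 were found among the 6679 identifiers of the deposited table. All 7 were above the filter of a mean of 5 RPKM (reads scaled to coding length and to library size) that left 5317 genes for testing. Their lowest value in any library was 12.5 RPKM, so none passed that filter only through the group in which it was high.

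The study sequenced poly(A) RNA of SK1, a Saccharomyces cerevisiae laboratory strain, growing in the rich medium YPD and collected in exponential phase. It compared cells in which spliced HAC1 mRNA was driven exogenously with cells in which it was not. The inducer group is 2 libraries, from cells given 20 nM or 40 nM of a compound that the labels write as bEST. The vehicle group is 2 libraries with ethanol (EtOH), 1 matched in volume to each dose. All 4 libraries carry the strain SK1 and the genotype WT in the labels, which do not give the driving promoter, the mating type, the ploidy or whether the libraries come from separate cultures. P-values therefore measure only the spread between these libraries, which may be technical, and the difference in dose is part of that spread.

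An Hsp70 binds unfolded stretches of protein and lets them go in a cycle of ATP hydrolysis and nucleotide exchange. J-domain proteins bring clients and stimulate hydrolysis, and nucleotide exchange factors restart the cycle by releasing ADP. In the yeast ER the Hsp70 is Kar2, known as BiP in mammals, which acts in translocation into the ER, folding, degradation of misfolded proteins and nuclear fusion during mating. Lhs1, a large Hsp70 relative, and Sil1 are its exchange factors. Scj1, Jem1 and Erj5 are J-domain proteins with their J domains in the lumen, whereas Hlj1 sits in the ER membrane with its J domain facing the cytosol. The J domain of Sec63, a translocon subunit, also works with Kar2. Hac1 is the factor that turns on genes of the unfolded protein response, and KAR2 is a textbook target of it.

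The promoters are shown because KAR2 is the gene in which the unfolded protein response element (UPRE) was first defined, and because the members differed in which element they hold. Sequences were read from the RefSeq R64 reference, 250 bases before to 50 after the first base of each gene. R64 is not SK1, and differences between the strains were not examined. Capitals mark CAGCGTG (the UPRE core, a form of the relaxed CAGNGTG) or TACGTG (a second element known as UPRE-2), read on either strand. The first line is the whole window of KAR2 (chrX:381077-381376, plus strand). The other lines are shorter windows of LHS1 (chrXI:296316-296352, plus strand), SIL1 (chrXV:267611-267646, minus strand) and ERJ5 (chrVI:238293-238328, minus strand).
KAR2: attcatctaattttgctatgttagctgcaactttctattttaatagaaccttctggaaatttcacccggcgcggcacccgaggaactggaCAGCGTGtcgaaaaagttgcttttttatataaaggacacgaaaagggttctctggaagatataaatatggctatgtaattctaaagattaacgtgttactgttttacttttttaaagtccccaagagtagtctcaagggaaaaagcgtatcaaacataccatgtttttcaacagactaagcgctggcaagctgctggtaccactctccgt
LHS1: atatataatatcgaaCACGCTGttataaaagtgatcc
SIL1: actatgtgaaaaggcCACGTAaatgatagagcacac
ERJ5: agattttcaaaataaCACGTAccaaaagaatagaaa

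CAGCGTG began 160 bases before the start codon of KAR2 and, on the opposite strand, 99 bases before that of LHS1. TACGTG was found on the opposite strand 102 bases before SIL1 and 58 bases before ERJ5. The windows of SCJ1, JEM1 and HLJ1 held neither element. Among 6001 nuclear promoters of the same length, 1.17% held CAGCGTG, 5.40% CAGNGTG, 7.75% TACGTG and 12.7% CAGNGTG or TACGTG. GAANNTTC, a heat shock element, occurred in KAR2 alone of the 7 members, 205 and 195 bases before its start, and in 11.8% of all windows. A match describes these letters in the R64 sequence and was not tested as a binding site.

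Depth recovered from the values was 2133000 and 2599000 reads in the vehicle libraries of 20 and 40 nM, and 1183000 and 4161000 reads in the inducer libraries. HAC1, the gene the study drove, had vehicle levels of 487 and 528 RPKM and inducer levels of 5922 and 3712 RPKM. With 1 value per gene, spliced and unspliced HAC1 RNA cannot be told apart, nor driven RNA from that of the cell's own gene. Markers of meiosis and of mating type were checked as lists. Of 14 meiosis and sporulation markers 4 were above the filter and 1 rose, HOP1 (0 without the 20 nM inducer library), and their summed level was 48.6 to 54.4 RPKM with vehicle and 55.6 to 63.3 RPKM with inducer. 1 of these 14 was listed at 0 in a vehicle library. Of 7 a-specific markers 6 rose, with sums of 425 to 791 RPKM with vehicle against 2011 to 3157 RPKM with inducer. Of 5 alpha-specific markers 4 rose, with sums of 37.2 to 47.7 and 481 to 837 RPKM, and of 9 haploid-specific markers 8 were tested and 4 rose, with sums of 54.6 to 66.4 and 272 to 299 RPKM. No marker of the 3 mating lists was at 0 in a vehicle library. Of the markers that rose, HOP1, MF(ALPHA)1, STE6 and FAR1 had vehicle means under 5 RPKM and so reached the filter only through the inducer libraries. Markers of cell type thus moved with the inducer alongside the genes below, and their part in those results was not tested. In bulk RNA, more cells of a kind and more RNA per cell cannot be told apart.

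With the inducer, 6 of the 7 genes rose and 0 fell, against 2.48% of all tested genes rising and 0.733% falling (limma with Benjamini-Hochberg adjusted p under 0.05, which is meant by rose and fell throughout). The member that did not pass was HLJ1. The median log2 fold change was 2.34 over the 7 genes and -0.02 over all tested genes. In 6 of the 7 genes both inducer libraries were above both vehicle libraries, which held for 23.0% of tested genes. Fold changes given with a standard error are on the log2(RPKM + 1) scale, and where 4 values follow each other the 2 vehicle libraries come first, each pair with 20 nM before 40 nM.

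**Figure D1:**
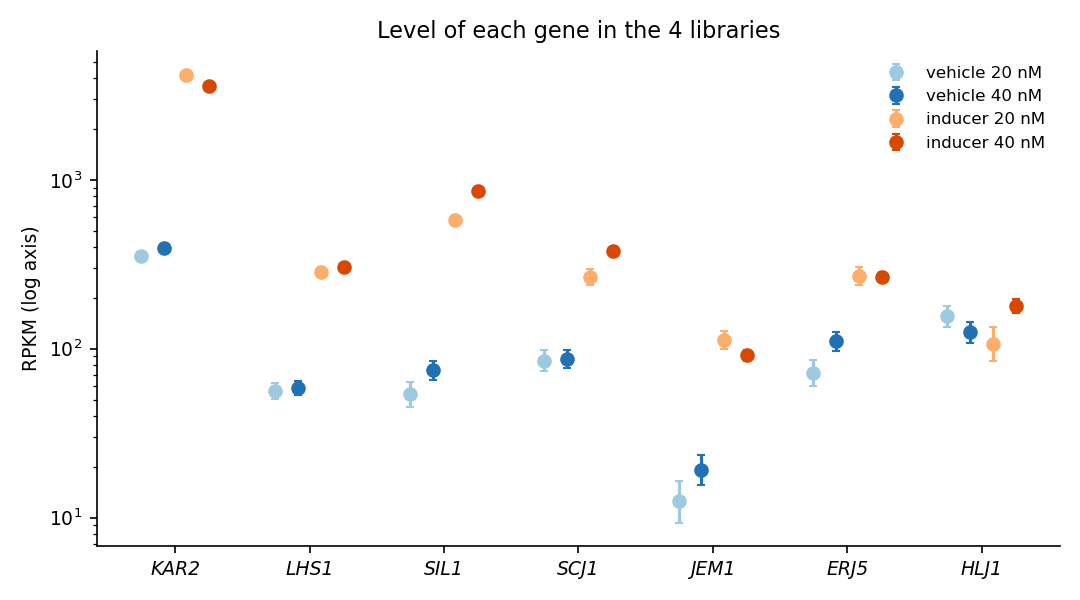
RPKM (log axis) of the 7 genes in the 4 libraries, with 95% Poisson intervals that cover counting error only. For KAR2, LHS1, SIL1, SCJ1, JEM1 and ERJ5 the inducer points (orange) lie above both vehicle points (blue), and for HLJ1 they overlap.

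KAR2, the Hsp70 itself, was at 354, 395, 4194 and 3612 RPKM. Both inducer libraries stood far above both vehicle libraries, and libraries of 1 group were close. Its log2 fold change was 3.38 (SE 0.20, limma adjusted p = 0.00177), place 20 of 5317 from the highest. By level, KAR2 was gene 603 and 525 of the tested genes with vehicle and gene 86 and 95 with inducer. Its share of the recovered reads was 0.0707% (exact binomial 95% interval 0.0672 to 0.0744) and 0.0791% (0.0757 to 0.0826) with vehicle, and 0.840% (0.823 to 0.857) and 0.723% (0.715 to 0.732) with inducer. These intervals cover counting error within 1 library only and leave out the spread between libraries. The reads carry no molecular identifiers, so copies of 1 molecule cannot be told from separate molecules. The call held when any 1 library was left out, with fold changes of 3.27 to 3.48.

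Both exchange factors rose too. SIL1 was at 54.0, 74.3, 575 and 859 RPKM, with the highest value in the 40 nM inducer library. Its log2 fold change of 3.45 (SE 0.29, limma adjusted p = 0.00214) was the largest of the 7, place 19 of all tested genes, although its 95% interval, 2.77 to 4.13, overlapped that of KAR2, 2.90 to 3.85, and that of LHS1, 1.83 to 2.85. LHS1 was at 56.2, 58.6, 284 and 305 RPKM, and the libraries of each group were close. Its log2 fold change was 2.34 (SE 0.22, limma adjusted p = 0.00281), place 54. With vehicle the exchange factors were at like levels, gene 2437 and 1963 by level for SIL1 and gene 2378 and 2275 for LHS1. With inducer they were at gene 362 and 286 for SIL1 and 655 and 696 for LHS1. The ratio of SIL1 to LHS1 within a library was 0.961 and 1.27 with vehicle and 2.02 and 2.81 with inducer. That is a difference of 1.11 on the log2 scale, with SDs of 0.28 and 0.34 (n = 2 each). The exact two-sided permutation test over the 4 libraries gave p = 0.33, the smallest that 2 against 2 allows.

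The 3 lumenal J-domain genes rose. JEM1, which also acts in nuclear fusion, was at 12.5, 19.3, 113 and 91.5 RPKM. It was the lowest of the 7 in every library but the 20 nM inducer library, where HLJ1 was lower, and its groups did not overlap. Its log2 fold change was 2.63 (SE 0.27, limma adjusted p = 0.00441). SCJ1, a soluble lumenal DnaJ relative, was at 85.1, 87.0, 266 and 380 RPKM, with agreeing vehicle libraries and inducer libraries farther apart. Its log2 fold change was 1.87 (SE 0.25, limma adjusted p = 0.0118). ERJ5, a membrane-anchored J-domain protein, was at 71.9, 111, 269 and 266 RPKM, so here the vehicle libraries were the ones that differed. Its log2 fold change was 1.57 (SE 0.27, limma adjusted p = 0.0268), and this call is the least stable of the 6. It was lost without the 20 nM vehicle library (1.26, adjusted p = 0.211) and without the 20 nM inducer library (1.56, adjusted p = 0.0790).

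HLJ1, the J-domain gene whose product faces the cytosol, was at 156, 125, 107 and 180 RPKM. Its lowest and its highest value were both in inducer libraries, so the groups overlapped. The log2 fold change was -0.0067 (SE 0.30, limma adjusted p = 0.997), with a 95% interval of -0.72 to 0.71, which lies below the lower bound of every other member, the nearest being ERJ5 at 0.93. The ratio of SCJ1 to HLJ1 within a library was 0.547 and 0.696 with vehicle and 2.48 and 2.11 with inducer, a log2 difference of 1.89 (SDs 0.24 and 0.16, exact permutation p = 0.33, the smallest possible). SEC63, the remaining ER J-domain gene, was at 230, 226, 375 and 408 RPKM. Both of its inducer libraries were higher, but its log2 fold change of 0.78 (SE 0.21, 95% interval 0.27 to 1.28) did not pass (limma adjusted p = 0.113).

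**Figure D2:**
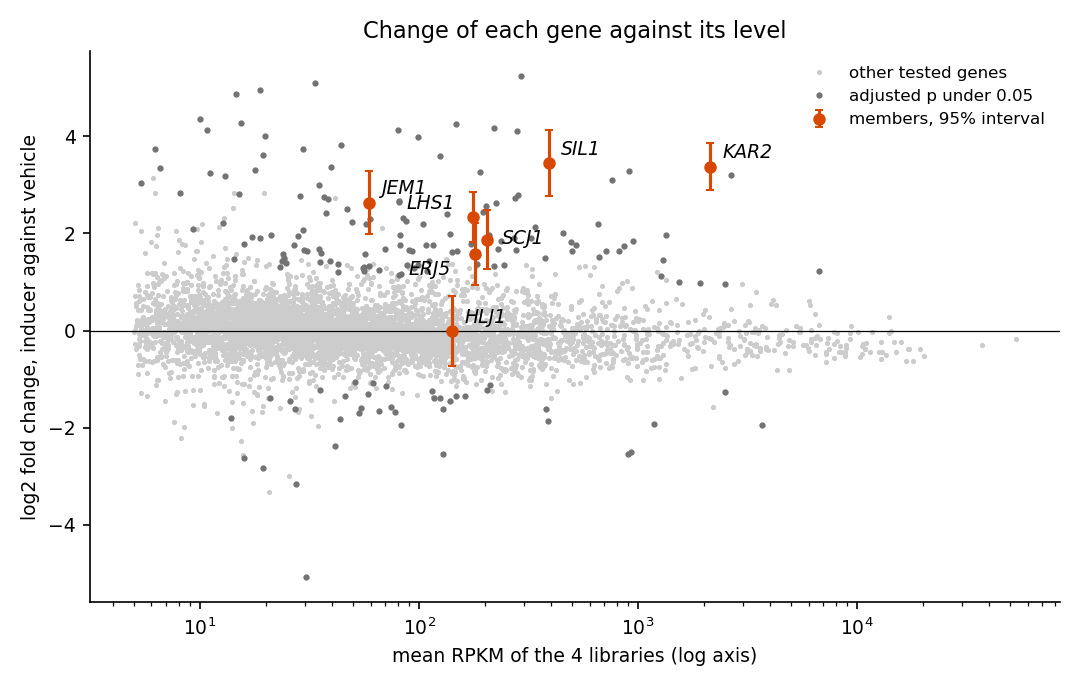
Log2 fold change of every tested gene (1 grey dot per gene, darker where adjusted p was under 0.05) against its mean RPKM over the 4 libraries (log axis), with the 7 members in orange and their 95% intervals. KAR2 is the member with the highest level, SIL1 the one with the largest change (3.45), and HLJ1 lies on the zero line.

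With vehicle, the order of levels per coding length was KAR2, HLJ1, ERJ5, SCJ1, SIL1, LHS1 and JEM1, with means of 374, 140, 91.5, 86.1, 64.2, 57.4 and 15.9 RPKM (n = 2). ERJ5 and SCJ1 overlapped in range, as did SIL1 and LHS1, and the other neighbours did not. With inducer the order was KAR2, SIL1, SCJ1, LHS1, ERJ5, HLJ1 and JEM1, with means of 3903, 717, 323, 295, 268, 143 and 102 RPKM (n = 2). There the range of SCJ1 covered those of LHS1 and ERJ5, and HLJ1 and JEM1 overlapped. HLJ1 was in the second place with vehicle and in the sixth with inducer without a called change of its own, and SIL1 was in the fifth and then in the second.

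The summed level of the J-domain genes and its makeup were described without a test. The 4 J-domain members summed to 325 and 342 RPKM with vehicle and to 755 and 917 RPKM with inducer. HLJ1 made up 47.8% and 36.5% of that sum with vehicle and 14.2% and 19.6% with inducer. SCJ1 made up 26.2% and 25.4%, then 35.2% and 41.4%. JEM1 made up 3.84% and 5.62%, then 14.9% and 9.97%. For these 3 genes the 2 groups did not overlap in share. ERJ5 overlapped, at 22.1% and 32.4% with vehicle and 35.7% and 29.0% with inducer.

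KAR2 was set against this pool and against its exchange factors within each library. The ratio of KAR2 to the summed J-domain members was 1.09 and 1.15 within the vehicle libraries and 5.55 and 3.94 within the inducer libraries. On the log2 scale it was 0.16 ± 0.061 with vehicle and 2.23 ± 0.35 with inducer (SD, n = 2), and the exact permutation p of 0.33 is the smallest this design can give. With SEC63 in the sum the log2 difference was 2.26 in place of 2.06. HLJ1, whose J domain faces the cytosol, was 47.8% and 36.5% of the J-domain sum with vehicle. With inducer it was 14.2% and 19.6%, so the difference would be smaller without HLJ1. The ratio to SCJ1, JEM1 and ERJ5 alone was not computed. Against the exchange factors the groups overlapped. KAR2 to summed LHS1 and SIL1 was 3.21 and 2.97 with vehicle and 4.88 and 3.10 with inducer, a log2 difference of 0.33 (SDs 0.077 and 0.46, exact permutation p = 0.67). Leaving out the 20 nM inducer library gave a difference of 0.0069, and leaving out that of 40 nM gave 0.66. Set against each singly, KAR2 to LHS1 was 6.29 and 6.74 with vehicle and 14.8 and 11.8 with inducer (exact permutation p = 0.33). KAR2 to SIL1 was 6.54 and 5.32 with vehicle and 7.29 and 4.21 with inducer, with overlapping groups (exact permutation p = 1). In all 7 such ratios were tested, and none could pass in a design of this size, before or after adjustment. The seventh, JEM1 to ERJ5, was 0.174 and 0.173 with vehicle and 0.418 and 0.344 with inducer (exact permutation p = 0.33).

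**Figure D3:**
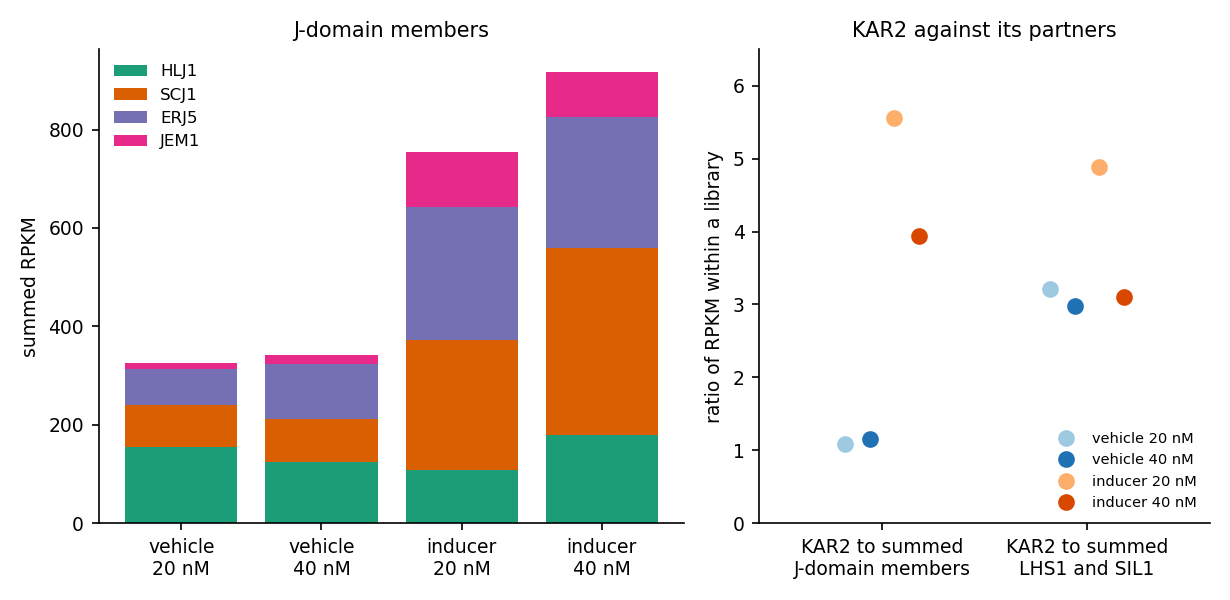
Left, RPKM of the 4 J-domain members stacked for each library, with sums of 325, 342, 755 and 917 RPKM. Right, the ratio of KAR2 to summed J-domain members and to summed LHS1 and SIL1 within each library, where the first ratio lies near 1 with vehicle and at 3.94 and 5.55 with inducer, and the second overlaps between groups.

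Each dose has 1 library per treatment, so the doses were described without a test. KAR2 was 11.9-fold its volume-matched vehicle at 20 nM (counting interval 11.2 to 12.5) and 9.13-fold at 40 nM (8.73 to 9.56). SIL1 was 10.6-fold (8.89 to 12.8) and 11.6-fold (10.1 to 13.2), and LHS1 was 5.06-fold (4.44 to 5.78) and 5.21-fold (4.69 to 5.79). For SIL1 the closeness of both ratios holds only with the volume-matched vehicle: against the vehicle library of the other dose, a choice made after seeing the data, its log2 ratios were 2.94 at 20 nM and 3.97 at 40 nM, while those of LHS1 were 2.26 and 2.42. JEM1 was 9.01-fold (6.63 to 12.5) at 20 nM and 4.75-fold (3.83 to 5.96) at 40 nM. ERJ5 was 3.75-fold (3.02 to 4.67) and 2.40-fold (2.08 to 2.78), while SCJ1 was 3.12-fold (2.61 to 3.75) and 4.36-fold (3.81 to 5.01). HLJ1 was 0.689-fold (0.524 to 0.899) at 20 nM and 1.44-fold (1.21 to 1.71) at 40 nM, so its dose ratios pointed opposite ways. Between the 2 inducer libraries, the members' log2 differences (40 nM less 20 nM) ran from -0.30 for JEM1 to 0.74 for HLJ1, next to an SD of 0.63 for that pair over all tested genes. For the vehicle libraries they ran from -0.31 for HLJ1 to 0.62 for ERJ5, next to an SD of 0.43. The lower 40 nM ratios of JEM1 and ERJ5 went with their higher values in the 40 nM vehicle library, by 0.59 and 0.62 on the log2 scale. With the vehicle libraries exchanged, the order of the doses reversed for both genes. The log2 ratios were then 2.49 at 20 nM and 2.78 at 40 nM for JEM1, and 1.27 and 1.87 for ERJ5. The other members kept their order. Which dose gave the higher ratio for JEM1 and ERJ5 thus depended on the vehicle library used.

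**Figure D4:**
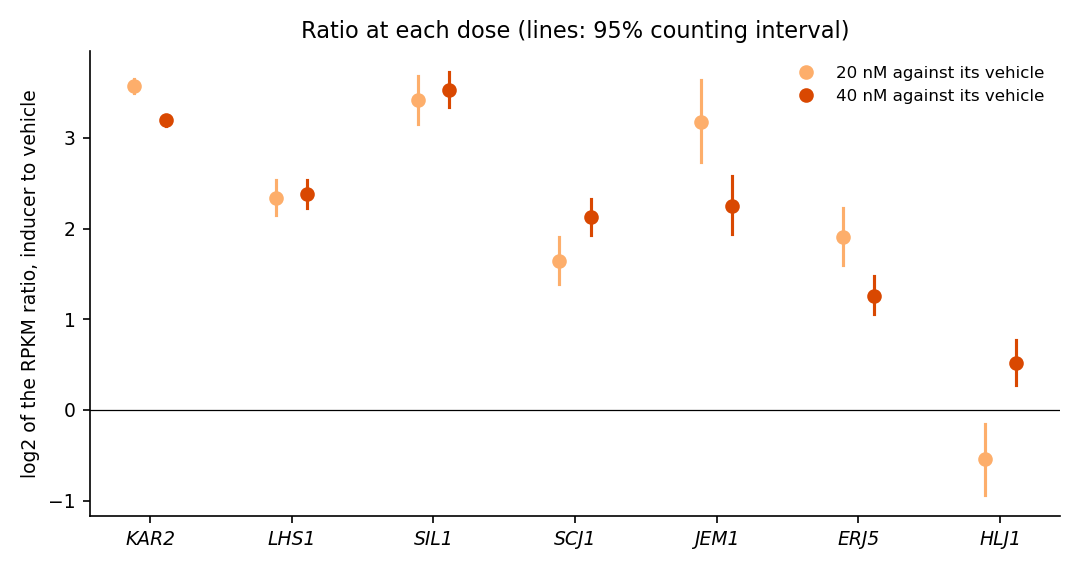
Log2 of the RPKM ratio of inducer to volume-matched vehicle for the 7 genes at 20 nM and 40 nM, with 95% intervals that cover counting error only. Against these matched vehicles the ratios of LHS1 and SIL1 are close at both doses (for SIL1 not with the vehicles exchanged, at 2.94 and 3.97), and those of HLJ1 lie on opposite sides of 0.

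Chaperones of the same families outside the ER were compared as lists. Of 17 J-domain proteins outside the ER, all tested, 1 rose and 0 fell, with a median log2 fold change of -0.15. The 1 rise was SWA2, the auxilin relative of clathrin uncoating (1.66, SE 0.26, limma adjusted p = 0.0208), named after its value was seen, and it was lost without the 20 nM inducer library. Of 12 Hsp70 and Hsp110 chaperones outside the ER, 0 passed, with log2 fold changes of 0.04 to 0.90 and a median of 0.43, and without the 40 nM inducer library 3 rose. Of 3 exchange factors outside the ER, 0 passed (median -0.26), and of 12 cytosolic heat shock chaperones 0 passed (median 0.08). Without the 40 nM inducer library 1 of each of these last 2 lists fell. MDJ2 of the J-domain list and ECM10 of the Hsp70 list, neither of them called, had vehicle means under 5 RPKM. Both inducer libraries were above both vehicle libraries in 7 of the 12 Hsp70 and Hsp110 chaperones. The same held for 5 of the 17 J-domain proteins, 0 of the 3 exchange factors and 2 of the 12 heat shock chaperones. Over all tested genes it held for 23.0%, and 869 genes had an unadjusted p under 0.05.

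Some genes of other ER lists rose. Of 14 other folding enzymes 5 rose and 0 fell (median log2 fold change 0.32). They were PDI1, EUG1 and MPD1, of the disulfide isomerase family, ERO1, the thiol oxidase, and FPR2, a peptidyl-prolyl isomerase. Their log2 fold changes ran from 1.74 for PDI1 to 3.10 for ERO1. Without a variance trend 4 of the 14 rose. In 8 of the 14 both inducer libraries were above both vehicle libraries. Of 12 genes of ER-associated degradation 4 rose and 0 fell (median 0.61). They were HRD1, the ubiquitin ligase, its partners USA1 and DER1, and DFM1, from 1.29 for HRD1 to 2.44 for DER1. HRD1 was close to the threshold (limma adjusted p = 0.0478). Without the filter or without a variance trend 3 of the 12 rose, and with limma-voom or dose as a block 5 did. In 8 of the 12 both inducer libraries were above both vehicle libraries. Of 9 genes of translocation 1 rose, SEC61 (1.85, SE 0.33), with a median of 0.78. In 7 of the 9 both inducer libraries were above both vehicle libraries, against 23.0% of all tested genes. Leaving out the inducer library of 20 nM gave 3 rises, leaving out that of 40 nM gave 4 rises and 1 fall, limma-voom on recovered reads gave 5, dose as a block gave 4, median scaling gave 2 and without a variance trend 0 passed. Of 8 nuclear fusion genes, the process that gave KAR2 its name, 1 rose, PRM3, and the median was 0.41. The count was 2 without the 20 nM vehicle, the 20 nM inducer or the 40 nM inducer library.

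**Figure D5:**
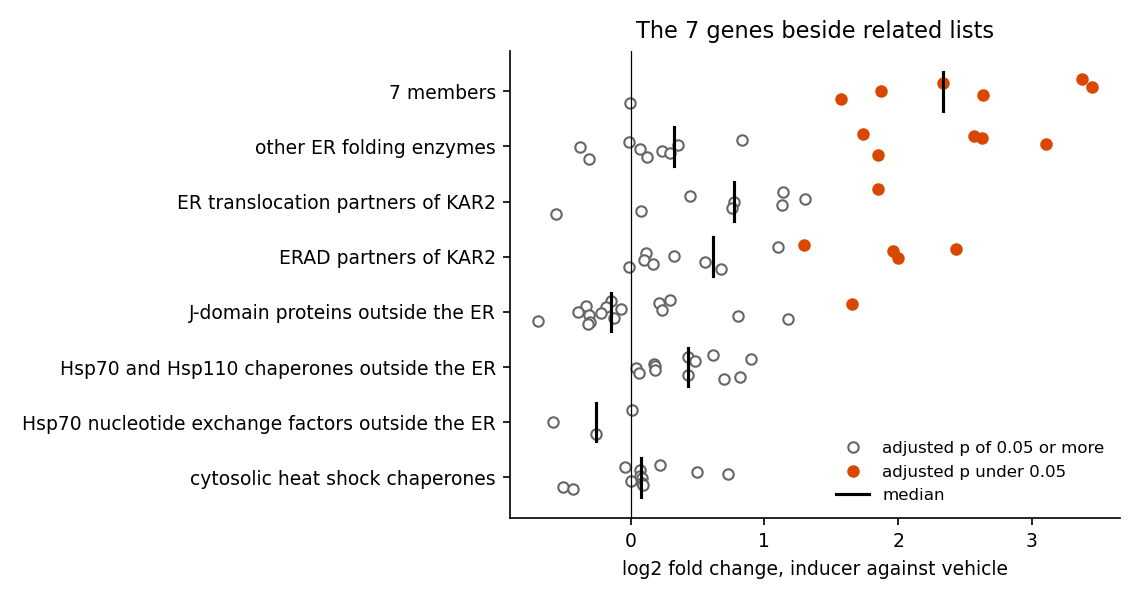
Log2 fold change (inducer against vehicle) of each tested gene of the 7 members and of 7 related lists, filled where the adjusted p was under 0.05, with a bar at each median. The members' median is 2.34, and the highest median among these 7 related lists is 0.78, for the translocation list. The marker lists are not drawn. Their medians were 3.98 (alpha-specific), 2.41 (a-specific), 2.09 (haploid-specific) and 0.83 (meiosis and sporulation, tested genes only).

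The genes next to the members were examined in the R64 annotation. No member overlaps another annotated gene, and no member holds a 50-base window repeated elsewhere in that genome. For 5 of the 7 the next gene upstream is divergent, so that the intergenic stretch is shared. Of the 7 upstream genes 1 rose and 0 fell. It was TAD2, a tRNA adenosine deaminase subunit 325 bases from KAR2, named after its values were seen, at 92.7, 76.6, 323 and 345 RPKM (1.97, SE 0.23, limma adjusted p = 0.00589). The KAR2 element lies 172 bases before the start of TAD2. MUD2, divergent from LHS1, was at 54.1, 44.4, 93.2 and 126 RPKM (1.13, SE 0.25, limma adjusted p = 0.0702), and KEG1, divergent from ERJ5, was at 169, 161, 293 and 609 RPKM (1.35, SE 0.35, limma adjusted p = 0.101). The windows of MUD2 and KEG1 also held the element of their neighbour. SMC3, divergent from JEM1, whose window held no element, was at 16.1, 16.0, 36.8 and 31.6 RPKM (1.04, SE 0.23, limma adjusted p = 0.0708). None of these 3 passed, and they too were named after their values were seen. In each, both inducer libraries were above both vehicle libraries, which held for 23.0% of all tested genes. GAS5, divergent from SIL1 and with no element in its own window, was at 0.25 on the log2 scale. CEF1 and CVM1, which are not divergent, were at -0.20 and -0.37. The window of CEF1 held TACGTG, past the first base of the gene, and that of CVM1 held neither element.

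Genes with a profile like KAR2 were taken by Euclidean distance between log2(RPKM + 1) values of the 4 libraries, each gene centred on its own mean, among 3941 genes whose mean reached 20 RPKM. JEM1, STE18 and MFA2 reached that mean only through the inducer libraries. The 5 nearest were MCD4 (distance 0.11), STF2 (0.31), MFA2 (0.33), HAC1 (0.37) and STE18 (0.48). STE18 encodes the gamma subunit of the pheromone G protein and MFA2 the a-factor pheromone. MFA2 rests on 2, 3, 15 and 57 reads and STE18 on 4, 5, 19 and 76 reads, so their places are uncertain by counting error alone. MCD4, a GPI anchor transferase of the ER, went from 33.0 and 36.6 to 366 and 321 RPKM, with the same small decline from 20 to 40 nM as KAR2. Of the members, SIL1 was place 8 (0.60), JEM1 place 16 (0.80), LHS1 place 24 (1.06), SCJ1 place 49 (1.59) and ERJ5 place 77 (1.84). HLJ1 was place 1963 (3.47). Among the members themselves the closest pairs were LHS1 with SCJ1 and LHS1 with JEM1, both at 0.55. These distances describe 4 libraries and were not tested.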

How the data were processed

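Poly(A) RNA of 2 vehicle and 2 inducer libraries was analysed. The authors deposited 1 RPKM value per gene and library; the header names no unit, which was inferred from the values. Multiplied by the R64 coding length less 60 bases, 92.9% to 93.7% of values of up to 50 reads lay within 0.05 of a whole read. Per the submitters' processing notes STAR and SAMtools were used; the sources used here give no counting tool, build or annotation. Of 6679 identifiers 5982 matched R64 coding genes.

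Inducer and vehicle were compared on the log2(RPKM + 1) scale across the genes whose mean reached 5 RPKM. The test was limma (3.58.1, under R 4.3.3) with a variance trend, no covariate and Benjamini-Hochberg adjustment. Ratios within a library were tested by exact permutation (scipy 1.17.1, two-sided). Intervals of 95% are Poisson for levels, exact conditional for ratios of 2 libraries and exact binomial for shares. Named genes are the 7 members, HAC1, SEC63 and the 5 nearest to KAR2; list genes that rose and upstream neighbours were named after their values were seen. Members and lists were chosen with earlier results of these data known. Alternatives varied pseudocount, filter, scaling, trend, dose block, test (limma-voom on recovered reads, with TMM) and left out each library. Protein sequences were not analysed here.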

Additional observations from a re-analysis of the deposited data

Results flagged for a closer look

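HLJ1 was picked out because its effects at the 2 doses pointed opposite ways. Its log2 ratio of inducer to volume-matched vehicle, on the log2(RPKM + 1) scale, was -0.53 at 20 nM and 0.52 at 40 nM. Each dose has 1 library per treatment, so the difference was not tested. Between the 2 inducer libraries HLJ1 differed by 0.74, next to an SD of 0.63 over all tested genes. Genes outside the members differed there too, in both directions, such as SEC62 (546 and 1004 RPKM) and PDI1 (1730 and 936 RPKM). Whether HLJ1 followed a wider shift between these libraries was not tested. Against the vehicle library of the other dose, a choice made after seeing the data, the values were -0.22 and 0.21. The 20 nM inducer value rests on 78 reads and the 40 nM value on 460.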

How the results depend on the processing

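Of the 6 rising members, KAR2, LHS1, SIL1, SCJ1 and JEM1 stayed called under every alternative run. ERJ5 was lost without a variance trend (1.57, adjusted p = 0.0527) and without the 20 nM vehicle or the 20 nM inducer library; with 1 library left out it ranged from 1.26 to 1.88 (adjusted p = 0.00861 to 0.211). HLJ1, never called, changed sign with limma-voom on recovered reads (0.087) and without the 20 nM vehicle (0.15) or 20 nM inducer library (0.36), ranging from -0.38 to 0.36 with 1 library left out. SEC63 was called with limma-voom (0.81, adjusted p = 0.0362) and without the 40 nM inducer library (0.71). Over all genes, 132 rose and 39 fell. With limma-voom the counts were 222 and 72, with median scaling 65 fell, and without a trend 25 fell. With 1 library left out, rises ranged from 113 to 333 and falls from 32 to 460, the highest without the 40 nM inducer library. With dose as a replicate block they were 243 and 123, and 6 members rose. That fit, like each fit with 1 library left out, has 1 residual degree of freedom. Deviations of libraries of like dose correlated at -0.21 across genes. Whether libraries of like dose share a batch or handling was not tested. Left-out groups of 1 library were assumed to vary like the other group. With 1 library left out, the log2 difference in the ratio of KAR2 to the summed J-domain members was 1.81 to 2.31, and that to the summed exchange factors 0.0069 to 0.66; the other ratios were run in 1 setting. Counting error limits JEM1 with vehicle (50 and 94 reads) and HLJ1 at 20 nM (78 reads).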
